A study of Danio rerio with 18 samples.

Results

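A set of 405 stretches of chromatin in the testis of adult zebrafish were called as marked by an enhancer modification in the testis and the intestine but not in the brain or the heart. They were selected on the called regions themselves, as testis typical enhancers that overlap an intestine region of either class by 1 bp or more and share no base pair with any region of the brain or of the hearts of either age. The testis list held 9434 typical enhancers, so 4.29% met the rule, among 66306 regions in all lists together. Because the overlaps chose the members, the counts, lengths and overlaps below are descriptions without a test.

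The mark is acetylation of lysine 27 of histone H3 (H3K27ac), mapped by chromatin immunoprecipitation and sequencing (ChIP-seq). It is placed by the acetyltransferases p300 and CBP and is found at active enhancers, the DNA elements that raise transcription of genes at a distance, and at active promoters. A super-enhancer is a cluster of such elements with a high total of the mark, and a region below that total is called a typical enhancer. The testis holds germ cells at all stages of sperm formation beside Sertoli and Leydig cells, and the intestine holds a renewing epithelium over muscle, nerves, vessels and immune cells. Both are mixtures, and a region shared by whole organs need not be active in the same cell type of each. Whether promoters were separated from enhancers in the lists is not given in the sources used here. Gene names are not used because no annotation of the build of the files, Zv9, was at hand. The labelled tissues were not checked against marker genes for the same reason.

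All fish were wild-type AB males. Testis, brain and a first set of hearts came from fish aged 10 months, and intestine and a further set of hearts from fish aged 1 year. Each replicate pooled 8 testes, 12 brains, 20 hearts or 5 intestines, with 2 replicates of immunoprecipitated DNA per set except the heart at 10 months, which had 1. Testis and intestine therefore differed in age, and in fragment size (175 bp for testis, 200 bp for intestine), so that tissue, age and preparation cannot be told apart. The lists give 1 value per region and none per replicate. Every 95% interval below is over regions, does not cover the difference between fish, and rests on an unknown sequencing depth.

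Most testis regions that the intestine shared were also found in the brain or the heart. Of the 9434 testis typical enhancers, 5303 overlapped an intestine region, which is 56.2%, and 4898 of those also overlapped the brain or a heart. The 405 regions without a further tissue were 7.64% of the overlapping ones (95% interval 6.94 to 8.39). The same share with both heart lists in use was 14.2% (13.2 to 15.2) for the brain, with 640 regions of brain and testis only among 4509 that overlapped a brain region. It was 12.7% (11.9 to 13.6) for the heart of either age, with 754 among 5919. A further 2351 testis typical enhancers, 24.9% of the list, had no region in any other list. The typical-enhancer lists held 13897 regions in the intestine, 12571 in the brain, and 13053 and 13362 in the hearts at 10 months and 1 year. The order of intestine and heart depended on which heart lists were used. The heart at 1 year is the list with the age and fragment size of the intestine. With the heart at 10 months as the only heart, the share was 13.1% (12.2 to 14.0) for the intestine, 9.55% (8.76 to 10.4) for the heart and 16.7% (15.6 to 17.8) for the brain. With the heart at 1 year as the only heart it was 9.52%, 10.3% and 16.3%, and the intervals of intestine and heart overlap. The part of list size in these shares was not tested. The count of 405 rests on the overlap required and on the heart lists: it was 67 where at least 50% of both regions had to be shared, and 695 where the heart at 10 months was the only heart used.

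In the testis the regions had the median length of typical enhancers in general. Their lengths ran from 0.599 to 30.0 kb with a median of 3.40 kb (3.20 to 3.60), the same median as over all 9434 testis typical enhancers. The quartiles were 2.20 and 4.80 kb. Testis-only regions had a median of 3.20 kb (3.20 to 3.40) and an upper quartile of 4.40 kb. The groups differed in the upper tail. Of the 405 regions, 34 were longer than 10 kb, 8.40% (5.88 to 11.5), against 4.85% (4.02 to 5.80) of testis-only regions and 17.5% (16.5 to 18.6) of testis regions shared with the intestine and a further organ. Regions of brain and testis only (8.59%) and of heart and testis only (9.02%) lay inside the interval of the 405. The share longer than 10 kb was thus higher in regions shared with the intestine and a further organ, and the median was not. Regions shared with the intestine, brain and heart had a median of 3.20 kb. The part of length in being overlapped was not tested.

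**Figure D1:**
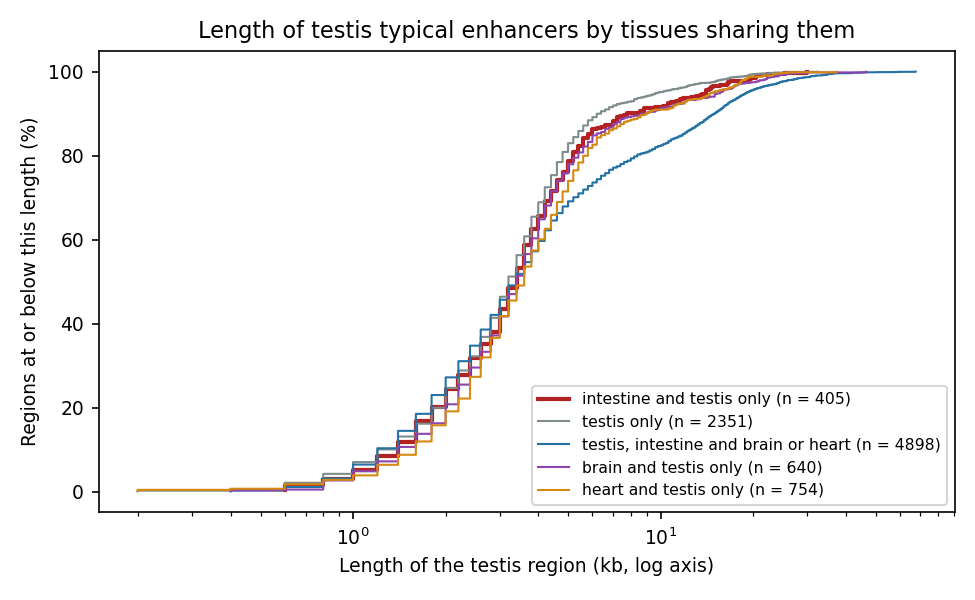
Cumulative share of testis typical enhancers (y axis, %) at or below a given length in the testis (x axis, kb, log axis), by the tissues that share them. The curve of the 405 regions of intestine and testis only stays close to those of brain or heart and testis only, above the curve of regions shared with the intestine and a further organ beyond 5 kb.

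The longest 5 of the 405 in the testis met intestine regions of 1.60 to 6.80 kb. The first lay on chromosome 23 from 36182601 to 36212599. It was 30.0 kb long, joined 4 loci in the testis and met an intestine region of 6.80 kb. The next, on chromosome 19 from 20257601 to 20282799, was 25.2 kb long. Its intestine region of 1.60 kb covered 6.35% of the testis region. The others of the longest 5 were on chromosome 9 from 2471601 to 2493799, with a length of 22.2 kb, and on chromosome 1 from 22261801 to 22282199 and from 27679401 to 27699799, each 20.4 kb long. Their intestine regions were 4.40, 1.80 and 1.60 kb long. In these 5 the intestine region with the most shared base pairs covered at most 22.7% of the testis region. Coverage by all intestine regions together was not summed.

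Most regions had no testis signal of their own. In the testis list a name can recur on several regions of unlike length, always with 1 signal, and 392 of the 405 shared a name with another testis typical enhancer. The signal was taken as a region's own where, times 10000, it was a whole multiple of the length. That held for 95 regions, 23.5% (19.4 to 27.9), against 26.5% of all testis typical enhancers. The number of loci is part of the name and was read only for these 95. It was 1 for 78 of them, 82.1% (72.9 to 89.2), against 86.8% of testis-only regions and 58.3% (55.7 to 60.9) of those shared with the intestine and a further organ. For 3 of the 95 the name gave no number.

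Over the 95 regions the testis signal per base pair ran from 0.314 to 0.871 with a median of 0.432 (0.397 to 0.459). The median was 0.410 (0.397 to 0.420) over 569 testis-only regions and 0.406 (0.398 to 0.416) over 1375 regions shared with the intestine and a further organ. These intervals overlap that of the 95. Among the 95 the signal per base pair was lower in longer regions (Spearman's rho -0.84 over regions of 1 list, Pearson's r -0.81 on log values). Length is also the divisor of this value, and the part of the division in the correlation was not tested. Of the 95, 59 share both name and length with another region, so their signal could belong to either.

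In the intestine 396 regions were the partners of the 405, where the partner is the intestine region with the most shared base pairs. Partner lengths ran from 0.399 to 231 kb with a median of 10.8 kb (8.60 to 14.4). The median of all 15042 intestine regions was 4.40 kb. Over the 4898 testis regions shared with a further organ, partners had a median of 15.0 kb (14.0 to 15.6). Across the 405 the rank correlation of testis and partner length was 0.01 (Spearman's rho), and over the 145 with a partner of a single locus it was 0.28 (Pearson's r 0.27 on log values).

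The partners fell into 2 kinds by the number of loci in their names. For 145 regions (35.8%, 31.1 to 40.7) the partner was a single locus, with a median of 1.80 kb in the intestine against 3.40 kb of the same 145 in the testis. The testis region was the longer one in 107 of the 145 (73.8%, 65.8 to 80.7). Among regions shared with a further organ it was the longer one in 964 of 1502 (64.2%, 61.7 to 66.6). For 250 regions (61.7%, 56.8 to 66.5) the partner joined several loci and its length included the stretches between them. Partners of 2 loci, matched to 85 regions, had a median of 10.2 kb, and those of 10 loci or more, matched to 18 regions, 104 kb. The names of the partners of 10 regions gave no number. Among all intestine regions 48.4% were single loci, and among partners of testis regions shared with a further organ 30.7% (29.4 to 32.0).

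**Figure D2:**
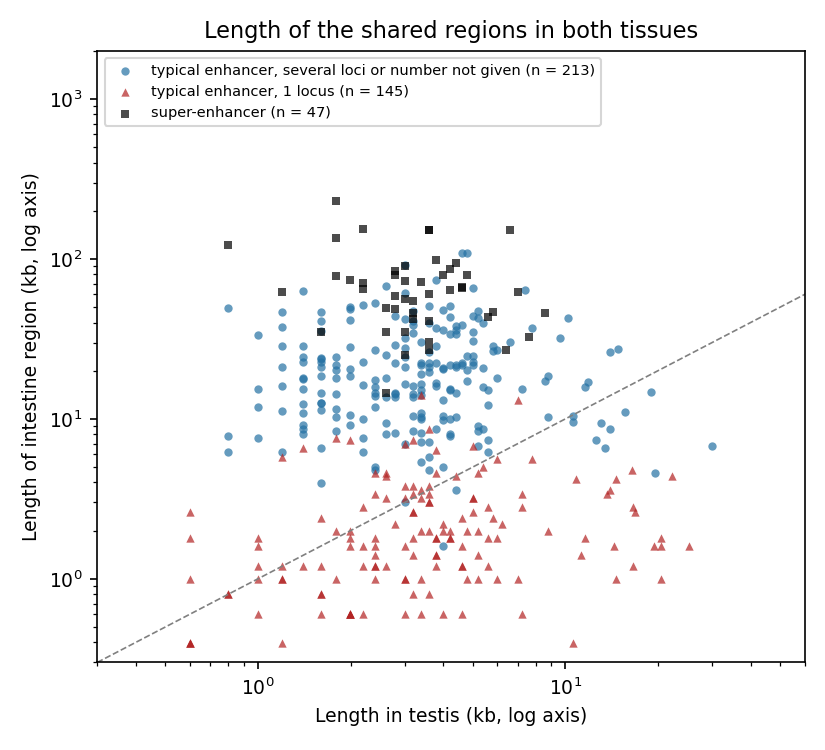
Length of each of the 405 regions in the testis (x axis, kb) against the length of its intestine partner (y axis, kb), both on log axes, with the dashed line at equal lengths. Super-enhancer partners (squares, n = 47) and partners of several loci lie mostly above the line, and 107 of the 145 single-locus partners (triangles) lie below it.

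How much of a testis region was shared went with the number of loci of the partner. Over all 405 the stretch shared with the partner had a median of 2.20 kb (2.0 to 2.40) and a range of 0.199 to 11.2 kb. It covered 93.3% of the testis region at the median (83.3 to 100) and 21.3% of the partner (18.4 to 24.3). With single-locus partners 42.8% (33.3 to 54.5) of the testis region was shared at the median, and with partners of 2 loci or more 100% in each class of loci. The testis region lay wholly inside its partner in 188 cases (46.4%), held the whole partner in 79 (19.5%) and overlapped it at 1 end in 132 (32.6%). Among regions shared with a further organ the shares were 54.1%, 18.2% and 25.6% in the same order. Inside a partner of several loci the region can lie on an acetylated locus of the intestine or in the gap between loci, and the lists do not say which. Centres of regions with such partners lay at 73.7% (67.3 to 78.7) of the way from the partner's centre to its end, against 70.5% (68.7 to 71.8) for the regions shared with a further organ.

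The bounds were the same in both tissues for 6 of the 405 regions (1.48%, 0.546 to 3.20). This held for 104 of the 4898 regions shared with a further organ (2.12%, 1.74 to 2.57), a share inside that interval. The 6 regions were chosen here after their values were seen. They lay on chromosome 3 from 4046601 to 4047399 (0.799 kb) and from 40145801 to 40147799 (2.0 kb), and on chromosome 5 from 45904801 to 45905599 (0.799 kb). The others were on chromosome 10 from 34782801 to 34783999, 1.20 kb long, on chromosome 13 from 25938201 to 25941199, 3.0 kb long, and on chromosome 15 from 32673801 to 32674799, 0.999 kb long. All 6 partners were typical enhancers, and 5 were single loci with an intestine signal per base pair of 0.774 to 1.44. Region starts lie on a grid of 200 bp, so the same bounds mean agreement to that step.

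The longest shared stretches measured 7.60 to 11.2 kb. Chromosome 18 held 1 of the 2 longest, from 44153601 to 44165399, where 11.2 of 11.8 kb lay in an intestine typical enhancer of 3 loci. The other, on chromosome 3 from 15374801 to 15388799, shared 11.2 of 14.0 kb. The closest match among the first 10 was on chromosome 3 from 37192401 to 37202999. There a testis region of 10.6 kb and 2 loci (0.360 signal units per bp in the testis list) shared 10.2 kb with an intestine region of 10.4 kb and 2 loci (0.600 in the intestine list). Values of different lists have no stated common scale and are not compared. The other 7 lay on chromosome 16 from 36719001 to 36729199 and from 13988601 to 13997199, chromosome 1 from 22022401 to 22033999, chromosome 9 from 21886001 to 21894799, chromosome 4 from 16324001 to 16337999, chromosome 18 from 22201201 to 22208999 and chromosome 21 from 20493001 to 20500599.

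An intestine super-enhancer was the partner of 47 of the 405 regions, 11.6% (8.65 to 15.1). Over all testis typical enhancers with an intestine region the share was 21.5%. Counted once per intestine region, 41 of the 396 partners were super-enhancers, 10.4% (7.53 to 13.8), an interval that contains the 7.61% of all intestine regions. Partners were also longer than intestine regions in general (medians of 10.8 and 4.40 kb), and the part of length in these shares was not tested. For testis regions shared with the intestine and the brain the share was 16.8% (10.6 to 24.8), with the intestine and the heart 21.9% (19.8 to 24.2), and with all 3 organs 22.7% (21.3 to 24.1). The partners of the 47 regions had lengths of 14.6 to 231 kb and a median of 64.2 kb.

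The super-enhancer partner with the most signal per base pair was compact. It lay on chromosome 10 from 196001 to 210599 and carried 1.58 signal units per bp over 14.6 kb, with a testis region of 2.60 kb inside it from 202601 to 205199. It stood apart from the rest, since the next highest, on chromosome 19 from 20470201 to 20495199, had 0.893 and the median of the 47 was 0.596 (0.556 to 0.652). The third highest had 0.837 and lay on chromosome 7 from 43736801 to 43763799. The fourth, on chromosome 16 from 13966401 to 14012199 (0.780 signal units per bp, 8 loci), met 2 of the 405 regions. The super-enhancer on chromosome 19 from 6295201 to 6329999 (0.733) also met 2 of them. The remaining named ones carried 0.715 to 0.734 and were on chromosome 24 from 3216001 to 3242999, chromosome 25 from 14003201 to 14067399 and chromosome 19 from 9400001 to 9448399.

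The intestine signal per base pair of the partners lay below that of intestine regions in general over partners of all loci numbers, and not over single-locus partners. Over the 405 it ran from 0.239 to 2.06 with a median of 0.518 (0.497 to 0.536), against 0.608 (0.598 to 0.615) for regions shared with a further organ and 0.569 (0.565 to 0.574) for all 15042 intestine regions. The value went with the number of loci, with a median of 0.440 for partners of 2 loci, so single-locus partners were also compared on their own. For those of the 145 regions the median was 0.660 (0.598 to 0.695), with quartiles of 0.508 and 0.822. Intestine regions of 1 locus in no other list had 0.608 (0.598 to 0.616, n = 2402), and all intestine regions of 1 locus 0.661 (0.654 to 0.669, n = 7281).

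The single-locus partners carried less signal per base pair than those of regions shared by all organs. Over regions with any further organ the median was 1.08 (1.01 to 1.14, n = 1502). It was 0.621 (0.550 to 0.727, n = 50) with the brain as the only further organ, 0.719 (0.684 to 0.758, n = 385) with the heart, and 1.35 (1.29 to 1.41, n = 1067) with both. The interval of the 405 overlaps those of regions with 1 further organ and lies below that of regions with all organs. The median lengths of these single-locus partners were 1.80 kb for the 405 and 1.40, 2.0 and 1.80 kb for the others in the same order. In the testis the median signal per base pair was 0.432, 0.390, 0.398 and 0.413 over regions with their own signal. These are other sets of regions, of all loci numbers (n = 95, 23, 410 and 942). Whether the testis signal follows the order of the intestine was therefore not tested.

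The medians of the 405 were below those of regions with any further organ in each of 4 length classes, which were set after the values were seen. Single-locus partners under 1 kb had medians of 0.756 (0.684 to 0.842, n = 38) in the 405 and 1.15 (0.979 to 1.33, n = 312) in regions shared with a further organ. Those from 1 to 2 kb had 0.547 (0.524 to 0.690, n = 51) and 1.29 (1.21 to 1.38, n = 571), and those from 2 to 4 kb 0.484 (0.430 to 0.654, n = 32) and 0.921 (0.830 to 1.03, n = 440). Over 4 kb the values were 0.669 (0.541 to 0.805, n = 24) and 0.842 (0.761 to 0.922, n = 179), and the intervals overlap. Intestine regions in no other list had 0.743, 0.579, 0.495 and 0.554 in these classes, each inside the interval of the 405.

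**Figure D3:**
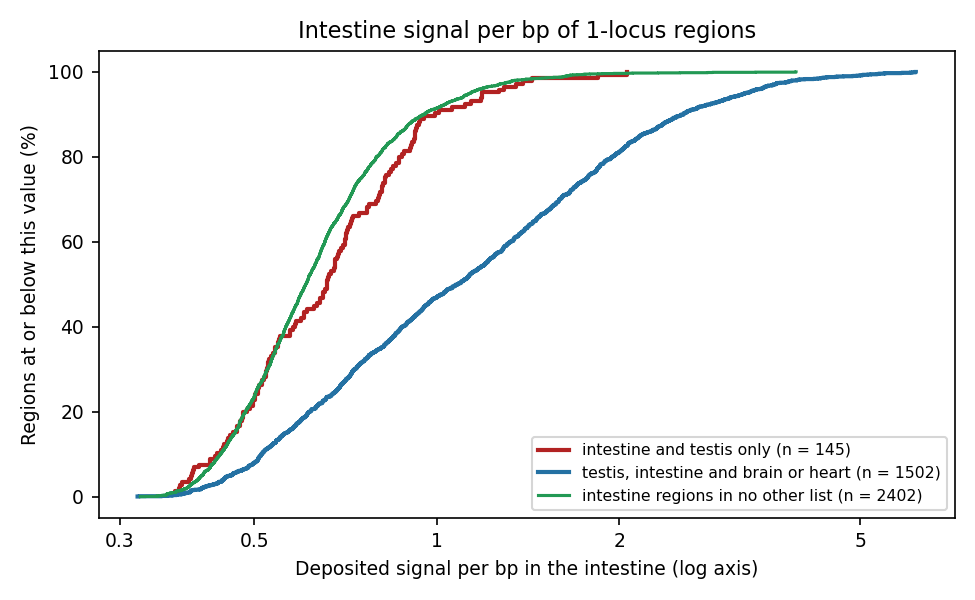
Cumulative share of single-locus intestine regions (y axis, %) at or below a given deposited signal per bp (x axis, log axis). The curve of partners of the 405 regions (n = 145, median 0.660) follows that of intestine regions in no other list (n = 2402, median 0.608) and lies left of that of partners of regions shared with a further organ (n = 1502, median 1.08).

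The highest partner signal per base pair of the 405 was on chromosome 25 from 3703001 to 3704199, where a testis region of 1.20 kb met an intestine region of 0.999 kb with 2.06 signal units per bp. The next was on chromosome 25 from 22871401 to 22873399 (1.85), followed by the compact super-enhancer on chromosome 10. The fourth was the region with the same bounds on chromosome 10 from 34782801 to 34783999 (1.44) and the fifth was on chromosome 18 from 5637401 to 5644599 (1.39). The 4 with single-locus partners lay 20.8 to 114 kb from the nearest brain or heart region. In those with their own testis signal and a single-locus partner the values of both tissues had a weak correlation (Spearman's rho 0.32, Pearson's r 0.33 on log values, n = 40), in lists of separate libraries. Over all 95 with their own testis signal the values were 0.17 and 0.15. Length is the divisor in both tissues. In the 145 single-locus partners the intestine signal per base pair was also lower in longer ones (Spearman's rho -0.33). The part of length in the correlation between tissues was not tested.

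Some partners reached into regions of other organs beyond the shared stretch, less often than intestine regions in general. The rule bars brain and heart regions from the shared stretch. A lower share was therefore partly set by the selection. For 159 of the 405 regions (39.3%, 34.5 to 44.2) the intestine partner also overlapped a brain or heart region elsewhere along its length. Counted once per intestine region, 155 of the 396 partners did so, against 11535 of all 15042 intestine regions. The partner met the heart at 1 year in 136 cases (33.6%), the heart at 10 months in 121 (29.9%) and the brain in 77 (19.0%). The order was the same over all 5303 testis typical enhancers with an intestine region (91.3%, 87.5% and 74.0%). Partners of the 405 that met the brain or a heart were long, with a median of 30.4 kb and 4 loci over 155 different regions. Of these 155, 37 were super-enhancers (23.9%, 17.4 to 31.4). Super-enhancers made up 9.78% (9.24 to 10.3) of all intestine regions that met the brain or a heart. Among those that also met a testis region they made up 17.5% (16.5 to 18.6). Each of the 155 overlaps a testis region free of brain and heart and meets a brain or heart region elsewhere. The rule thus partly set their length, and the part of length in these super-enhancer shares was not tested. The other 241 partners had a median of 3.80 kb, and 4 of them (1.66%, 0.454 to 4.19) were super-enhancers. Of the 145 regions with a single-locus partner, 9 had one that met a brain or heart region. Of all 7281 intestine regions of 1 locus, 4712 met one. The shared stretch covered 100% of a single-locus partner at the median (88.9 to 100), so the rule largely fixed this difference. The rule describes the testis stretch and not the whole intestine region around it. For 246 regions neither the testis region nor its partner met the brain or a heart.

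Brain and heart regions were often close by. The gap to the nearest one had a median of 15.0 kb (12.6 to 17.2) and ran from 1 bp to 509 kb. It was 16.4 kb (15.6 to 17.2) for testis-only regions. Of the 405, 96 lay within 5 kb of a brain or heart region, 23.7% (19.6 to 28.2), against 16.9% (15.4 to 18.5) of testis-only regions. The nearest list was the heart at 1 year for 152 regions, the brain for 118 and the heart at 10 months for 80, and 55 had ties. These counts are not set beside those of testis-only regions, so the order is not read as a trait of the 405. Just inside the rule were the regions on chromosome 18 from 22201201 to 22208999 and on chromosome 7 from 43761801 to 43765399, both next to a brain or heart region with a gap of 1 bp. The third, on chromosome 15 from 31162001 to 31164399, had a gap of 201 bp and shared 199 bp with the intestine. Just outside, counted in base pairs, was a region on chromosome 19 from 9768401 to 9770999, which shared 199 bp with a brain or heart region. Those on chromosome 11 from 4246201 to 4246999 and from 45450601 to 45450999 shared 399 bp each. They were 0.799 and 0.399 kb long, so the last was shared over its whole length. Of the 4898 regions kept out by a brain or heart region, 446 (9.11%) shared at most 1000 bp with it. This count includes short regions whatever the part of their length that was shared.

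Within the testis the regions lay somewhat closer to other testis enhancers than testis-only regions did. The gap to the nearest other testis enhancer of either class had a median of 32.6 kb (30.0 to 36.6), with quartiles of 20.6 and 65.2 kb. It was 42.2 kb (40.2 to 44.4) for testis-only regions, 44.2 kb (40.0 to 48.4) for those of brain and testis only, 35.6 kb (33.2 to 38.6) for those of heart and testis only and 34.4 kb (33.4 to 35.6) for those shared with the intestine and a further organ. The median over all testis typical enhancers was 37.2 kb. With single-locus partners only, the median of the regions was 38.3 kb (30.4 to 49.2). A neighbour within 20 kb was found for 98 of the 405 (24.2%, 20.1 to 28.7) and for 18.1% (16.5 to 19.7) of testis-only regions. The nearest testis super-enhancer was 730 kb away at the median (572 to 961), against 876 kb (785 to 939) for testis-only regions.

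**Figure D4:**
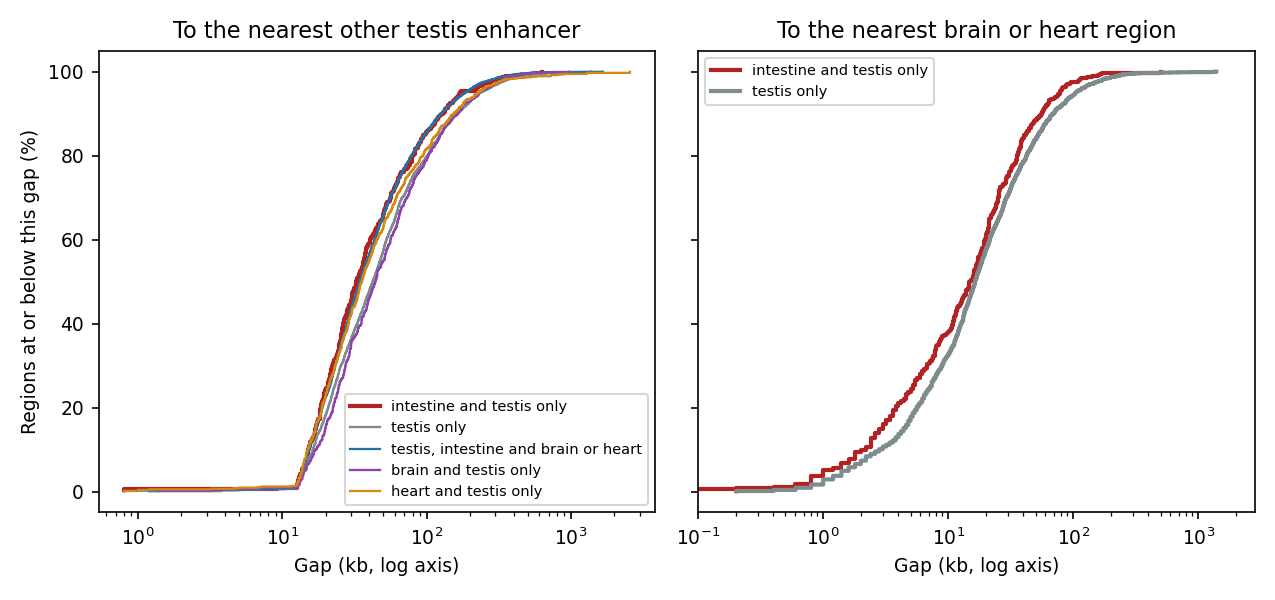
Cumulative share of testis typical enhancers (y axes, %) at or below a given gap (x axes, kb, log axes) to the nearest other testis enhancer (left, 5 groups) and to the nearest brain or heart region (right, regions without such an overlap). The curve of the 405 regions lies with that of regions shared with the intestine and a further organ on the left (medians 32.6 and 34.4 kb), and its medians are below those of testis-only regions in both panels. The order of the medians on the right was reversed in 4 of 12 alternatives. The gaps of 1 bp lie outside the right axis.

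Few testis enhancers next to one of the 405 were members themselves, with a share above that in the list and no test of the difference. It was 50 of 809 flanking testis enhancers (6.18%), beside 4.29% of all testis typical enhancers, the only class that can be members. The flanks were counted once per side of each of the 405, so 1 enhancer can count more than once. From one of the 405 to the nearest other one the median gap was 980 kb (761 to 1171). From testis-only regions to the nearest of the 405 it was 1048 kb (987 to 1110). In the order of testis enhancers along the chromosomes, 359 of the 405 stood alone between others. The rest formed 18 pairs, 2 runs of 3 and 1 run of 4. These counts have no comparison here, and neighbours can meet the same intestine region. Of the 396 partners, 389 met 1 of the regions, 5 met 2 and 2 met 3.

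The run of 4 lay near the start of chromosome 6, from 432201 to 537599 (105 kb). Its regions measured 4.80, 4.80, 2.80 and 4.0 kb in the testis. The first met a single-locus intestine region of 2.0 kb and the other 3 met 1 intestine super-enhancer of 79.6 kb and 9 loci, from 454401 to 533999 with 0.537 signal units per bp, that touched no brain or heart region. The nearest brain or heart regions were 58.4 to 112 kb from the members of this run. A run of 3 on chromosome 13 from 45808601 to 45875999 met a typical intestine enhancer of 109 kb and 13 loci with its first and second regions and another of 33.8 kb with the last. The other run of 3, on chromosome 6 from 26759401 to 26849999, had 3 separate partners and brain or heart regions within 0.401 to 2.40 kb.

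The regions were found on all 25 chromosomes, with 8 to 31 on each. They made up 2.63% to 7.19% of the testis typical enhancers of a chromosome, against 4.29% over all. Chromosome 3 had the highest share, 31 of 431 (7.19%, 4.94 to 10.1), followed by chromosome 6 with 28 of 423 (6.62%, 4.44 to 9.43) and chromosome 10 with 23 of 350 (6.57%, 4.21 to 9.70). Chromosome 22 had 8 of 304 (2.63%, 1.14 to 5.12) and chromosome 14 had 8 of 298 (2.68%, 1.17 to 5.22). The intervals of chromosomes 3 and 6 lay above the share over all and none lay below it. Unadjusted intervals of 25 chromosomes can miss a common value in some by counting error alone, and no chromosome is singled out from them.

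On chromosome 3 overlap with the intestine was itself frequent, 65.0% of testis typical enhancers against 56.2% over all chromosomes, and testis-only regions were the least frequent of all chromosomes (18.8%). Taken among testis regions with an intestine region, the 405 made up 11.1% on chromosome 3, 11.3% on chromosome 6 and 11.2% on chromosome 10, against 7.64% over all and 4.49% on chromosome 22. Each of the 31 on chromosome 3 had a partner of its own, and the 28 on chromosome 6 had 26 partners.

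**Figure D5:**
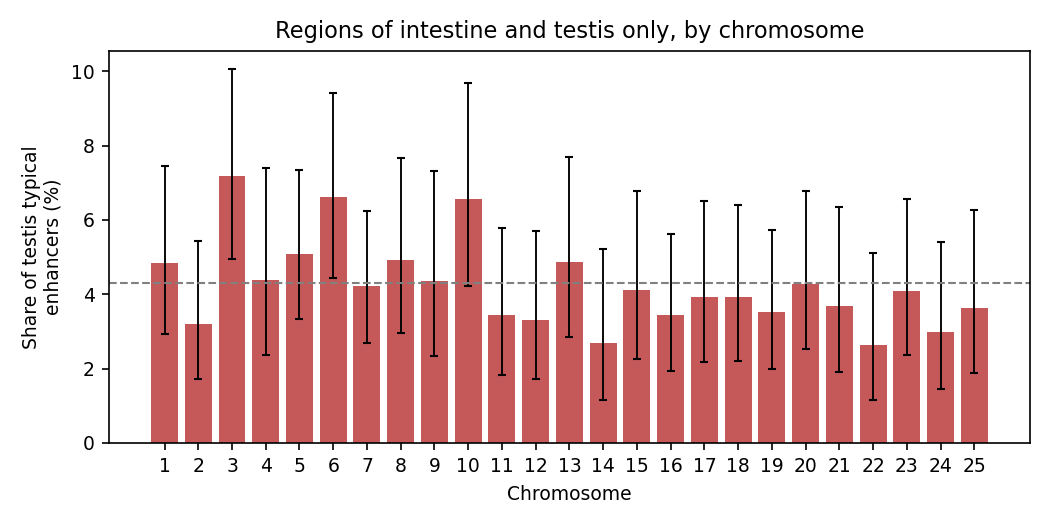
Share of the testis typical enhancers of each chromosome (y axis, %) that were shared with the intestine only (bars), with exact 95% binomial intervals over regions. The dashed line marks 4.29%, the share over all chromosomes, and the intervals of chromosomes 3 and 6 lie above it.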

How the data were processed

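The lists, in build Zv9, number 10, 1 per class for each of 5 sets of samples. Tools named by the submitters' processing notes, with no role given, are SICER 1.1, bedtools 2.24.0, Bowtie2 2.1.0, CASAVA and SAMtools 0.1.8. How loci were joined, classes divided, input used and replicates combined is not given in the sources used here. The deposited signal of a region is the authors' total over its length. The value was divided by length and its level compared only within a list, while testis and intestine values were also correlated. The series has 18 libraries (9 of input), but values per replicate and sequencing depth are unknown here.

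Overlaps and gaps were computed with Python 3.11.15, numpy 2.4.6, pandas 2.3.3 and scipy 1.17.1, and figures drawn with matplotlib 3.10.9. The overlap step was tested on simulated data and against bedtools. Shares carry exact Clopper-Pearson and medians exact binomial 95% intervals, which cover counting error only. No test was run. A name without a number of loci was left out of counts of loci. Named regions are the 10 with the most shared base pairs, the longest 5, the 5 with the highest partner signal per base pair, the 10 with the highest super-enhancer partners, the 3 longest runs and those nearest the limits of the rule. The members and lists were chosen with earlier results of these data known. No listed marker gene was used, since genes could not be placed. The alternatives were other overlaps, gaps, heart lists, classes and region filters.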

Additional observations from a re-analysis of the deposited data

How the results depend on the processing

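The 405 regions, their lengths, partners and spacing were recomputed under 12 alternatives, 2 of them (partners of 1 locus only, and partners without any brain or heart region) chosen after seeing the data. Of 132 recomputed values, 101 stayed within the interval of the value reported or, for the count of regions, within 1.5 times of it. The testis length (3.20 to 3.40 kb) and the signal per base pair of single-locus partners (0.642 to 0.674) did so under all 12. The alternatives reuse many of the same regions and are not independent of each other. With typical enhancers of the intestine only, the single-locus partners were those of the same 145 regions, so their value could not change. The count was 67 with at least 50% of both regions shared, 695 with the heart at 10 months as the only heart, 95 with own signal only, 146 with partners of 1 locus and 246 with partners without any brain or heart region. In the same order, without the heart alternative, the partner length was 3.0, 7.80, 1.80 and 4.20 kb. It was 2.80, 15.8, 1.80 and 3.20 kb in the remaining shared regions. The share of super-enhancer partners, with the heart alternative in its place, was 0% of 67, 15.4%, 8.42%, 0% of 146 and 2.44%. In the remaining shared regions it was 3.05%, 22.4%, 24.6%, 0.654% and 0%, so the order turned in the last alternative. With typical enhancers of the intestine only it was 0% in both groups, which that setting fixed. On chromosome 3 the share was 1.39%, 4.63%, 2.09% and 3.94% for the alternatives other than the heart, against 0.710%, 3.80%, 1.55% and 2.61% over all chromosomes under the same settings. The intervals of chromosome 3 (0.513 to 3.01, 1.52 to 10.5, 0.959 to 3.93 and 2.31 to 6.24) each contain the share over all. With the heart at 10 months only, 6.91 to 12.7 contains 7.37%. Chromosome 3 was above the share over all in 12 of 12 alternatives, which reuse the same regions and do not single it out. In the same order of alternatives, again without the heart, the gap to a brain or heart region was 21.4, 11.0, 21.0 and 24.0 kb. That gap was 20.8 kb with regions within 5000 bp left out. Single loci in the testis made up 89.5% and own signal 28.4% with 50% of both regions shared, and own signal is 100% where it was required. The shared percentage of the testis region was 42.5% and 66.6%, and the gap to the nearest testis enhancer 38.3 and 37.1 kb, with partners of 1 locus and with those without brain or heart. These last values have intervals of 30.4 to 49.2 and 30.6 to 44.6 kb, which contain both the 32.6 kb of the 405 and the 42.2 kb of testis-only regions. The cause was not tested. The single-locus partners lay below those of the remaining shared regions in 11 of 12 alternatives, and above them where only partners without brain or heart were taken, which leaves few remaining regions. No paired analysis was possible because the lists hold no values per replicate, and no replicate could be left out. The missing depth limits every count here, since a weak region of the brain or heart that was not called counts as absent.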
